A study of Mus musculus with 24 samples.

Results

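The expression of 47 mouse genes of cholesterol synthesis, sterol-regulated transcription and fatty acid metabolism was followed in macrophages treated with lipopolysaccharide (LPS, a cell wall component of Gram-negative bacteria) and given siRNA against Ctbp1 or Ctbp2, the genes of the transcriptional co-repressors CtBP1 and CtBP2, or labelled as knockouts of both. The genes are a given list, found by their symbols, 1 row per gene identifier, among 22996 genes of the table of primary macrophages and 54380 genes of the table of a cell line. They were grouped by role as 18 enzymes of cholesterol synthesis, 5 genes that control sterol regulatory element-binding proteins (SREBPs), 2 genes of sterol transfer and oxysterol formation, 7 liver X receptor (LXR) genes and targets, 10 enzymes of fatty acid synthesis, and 5 genes of fatty acid binding and storage. All 47 were in both tables.

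Polyadenylated RNA was sequenced from 8 groups of 3 libraries. Bone marrow-derived macrophages (BMDMs) came from male C57BL6/N mice of 6 to 12 weeks and were matured in medium holding supernatant of L929 cells, which supplies the growth factor CSF1. They received siRNA against Ctbp1, siRNA against Ctbp2 or control siRNA, and then LPS at 100 ng/ml or the vehicle PBS for 4 h, which gave 6 groups. The other 2 groups were the macrophage line J774.1, from a female BALB/c mouse, labelled as Ctbp1/2 double knockout (dKO) or wildtype, and both had 4 h of LPS at 100 ng/ml, so that the knockout comparison has no unstimulated arm. The labels call the libraries biological triplicates without saying whether they came from separate animals or cultures, and they do not say how many knockout clones were used. Each p-value is therefore set against the variation among these libraries alone, part of which may be technical.

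Cells adjust their sterol supply through SREBP2 and SREBP1, membrane-bound transcription factors that the escort protein SCAP carries to the Golgi for cleavage when sterols are low, and that INSIG proteins hold back in the endoplasmic reticulum when sterols are plentiful. LXR alpha (Nr1h3) and LXR beta (Nr1h2) are nuclear receptors for oxysterols and turn on cholesterol efflux genes such as Abca1 and Abcg1 and regulators of fatty acid synthesis. PPAR gamma (Pparg) is a nuclear receptor that drives lipid uptake and storage genes in macrophages, and CtBP proteins are NADH-binding co-repressors recruited by DNA-bound factors.

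Promoter sequences were available for 36 of the 47 genes in the RefSeq table of the GRCm38.p6 build, as windows from 250 bases before to 50 bases after each annotated start. The build differs from the one named in the file headers (mm39), so the coordinates serve the sequences only. The 4 promoters below are shown because they stand for the different behaviours described later: Hmgcs1 (the HMG-CoA synthase of the mevalonate route), Msmo1 (a late sterol enzyme that fell with LPS), Fasn (fatty acid synthase, which also fell) and Srebf2 (the gene of SREBP2, which rose). Each line gives the 250 bases before the start, 5′ to 3′ on the strand of the gene, and capitals mark the sterol response element TCACNCCAC and the NF-Y box CCAAT, found on either strand (ATTGG is CCAAT read on the other strand).
Hmgcs1, chr13:119690101-119690350, plus strand: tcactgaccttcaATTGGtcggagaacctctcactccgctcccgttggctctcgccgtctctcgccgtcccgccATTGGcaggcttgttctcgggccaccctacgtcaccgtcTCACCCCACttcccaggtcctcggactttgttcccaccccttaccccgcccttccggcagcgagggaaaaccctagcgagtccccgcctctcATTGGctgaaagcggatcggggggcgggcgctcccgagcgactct
Msmo1, chr8:64733579-64733828, minus strand: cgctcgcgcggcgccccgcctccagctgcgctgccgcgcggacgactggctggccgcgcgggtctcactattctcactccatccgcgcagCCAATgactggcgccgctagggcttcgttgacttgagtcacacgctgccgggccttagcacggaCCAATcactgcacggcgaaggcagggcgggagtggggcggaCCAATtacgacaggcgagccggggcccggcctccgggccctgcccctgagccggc
Fasn, chr11:120824548-120824797, minus strand: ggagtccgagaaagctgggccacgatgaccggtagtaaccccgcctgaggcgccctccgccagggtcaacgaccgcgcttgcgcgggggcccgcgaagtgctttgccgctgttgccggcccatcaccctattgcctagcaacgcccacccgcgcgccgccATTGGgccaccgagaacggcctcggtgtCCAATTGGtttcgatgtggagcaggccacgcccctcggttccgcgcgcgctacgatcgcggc
Srebf2, chr15:82147019-82147268, plus strand: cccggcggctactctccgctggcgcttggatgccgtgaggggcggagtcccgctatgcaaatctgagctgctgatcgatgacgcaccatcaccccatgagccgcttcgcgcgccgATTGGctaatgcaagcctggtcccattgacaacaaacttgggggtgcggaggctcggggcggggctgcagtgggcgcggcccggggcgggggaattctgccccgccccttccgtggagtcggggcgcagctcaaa
Hmgcs1 held the only exact match to TCACNCCAC, on the plus strand and starting 137 bases before the start, which made 1 of 50 windows of these genes (2%) against 1.24% of all 32851 windows. CCAAT is the binding letter string of NF-Y, a factor known to act beside SREBPs. It was found in 28 of 50 windows (56%), belonging to 26 of the 36 genes, against 37.4% of all windows. Msmo1 and Fasn each held 3 boxes, 2 of those in Fasn overlapping as CCAATTGG, Srebf2 held 1, and Hmgcs1 held 4, the last of them just past the start and so not printed. The direct-repeat LXR element with 4 free letters in its middle, allowed 2 mismatches in its 12 fixed letters, was matched in 1 of 50 windows (Dhcr7) against 3.02% of all, and the windows of Nr1h3 and Abca1 held none of the 3 motifs. Abcg1, Lpl, Scd2, Stard4, Fabp5, Sqle, Fads1, Scd1, Fdft1, Fabp4 and Fdps had no entry. These matches describe letters in a short window and were not used in any test below.

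The deposited values are TPM, transcript abundances corrected for gene length and scaled to a common total, which sum to between 999503 and 999944 in each library. The number of genes at 1 TPM or more ran from 11548 to 12259 over the BMDM libraries and from 11581 to 11823 over the J774.1 libraries. The siRNAs lowered their targets: Ctbp1 averaged 50.8 ± 4.46 TPM after its siRNA and LPS, against 123 ± 7.33 TPM in control siRNA cells with LPS, and Ctbp2 averaged 12.1 ± 1.70 TPM after its siRNA, against 38.2 ± 1.82 TPM (SD, n = 3 each). In the libraries labelled dKO, Ctbp1 was at 21.3, 22.3 and 16.1 TPM, against 156, 164 and 161 TPM in wildtype. Ctbp2 transcript was at 64.1, 61.5 and 63.6 TPM in the libraries labelled dKO, against 81.4, 74.4 and 78.7 TPM in wildtype, so its RNA was largely kept, and a transcript can persist when its protein is lost. The label is therefore used as a label only. All 8 macrophage markers examined were above 1 TPM in every BMDM group and 7 of 8 in both J774.1 groups, where their summed level was 2392 to 2650 TPM in the libraries labelled dKO and 3061 to 3124 TPM in wildtype. Adipocyte markers, which matter here because Fabp4, Lpl, Plin2 and Pparg are also fat cell genes, summed to at most 0.546 TPM in any library. In BMDM libraries the macrophage list summed to 12458 to 15783 TPM. The neutrophil list summed to 62 to 171 TPM there, with 5 of 8 genes at 1 TPM or more in every group. The dendritic cell list summed to 113 to 172 TPM, with Itgax its highest gene. The part of these markers in the results was not tested.

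A gene was tested where its mean over the libraries of a fit was at least 10 TPM. Among the 47 genes, 29 passed for BMDMs and 36 for the J774.1 line. The test was limma's moderated test on log2(TPM + 1), adjusted by Benjamini-Hochberg over all 7918 or 7782 genes tested. A change counts as called at an adjusted p under 0.05, fold changes are on the log2(TPM + 1) scale, which understates the change of low genes, and in bulk RNA fewer cells of a type and less RNA per cell cannot be told apart. The 18 genes left out of the BMDM test had a mean under 10 TPM, and 15 of them had a mean of at least 1 TPM. Some genes have close copies (Scd1 and Scd2, Acat2 and Acat3, Fabp5 and its pseudogenes), and their values depend on how the authors' quantification divided shared reads. The library kit named in the labels does not keep strand, so reads of a gene and of an overlapping antisense gene cannot be told apart.

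With LPS, control siRNA BMDMs had 18 of 23 called lipid genes lower on TPM, and 10 of 20 after median-of-ratios scaling, with the deepest falls in Pparg, Fads1, Plin2 and Abcg1, while Nr1h3, Srebf2 and Scap rose. The 23 were of 29 tested genes, and the other 5 called were higher. LPS changed 76.4% of all tested genes at the same threshold, 23.3% higher and 53.1% lower, so the count by itself does not set these genes apart. The LPS and vehicle libraries did not overlap for 25 of the 29 genes and for 77.7% of all genes. The median log2 fold change of the 29 was -0.33, beside -0.21 over all genes. TPM values share a fixed total, and the size of the falls moved with the scaling. After median-of-ratios scaling the all-gene median was -0.01 and 20 genes were called, 10 higher and 10 lower, against 71.8% of all genes, 36% higher and 35.7% lower. In the authors' deposited table, whose all-gene median was 0.11, the split was 10 higher and 7 lower among the 29, against 71.2% of all genes, 44.2% higher and 27% lower. Whether most called lipid genes were lower therefore depended on the scaling and on the table used. The falls of Pparg, Plin2, Fads1, Abcg1, Elovl5, Msmo1, Fabp5 and Fasn and the rises of Nr1h3, Srebf2 and Scap were called under both scalings and in all 3 siRNA backgrounds, although the authors' deposited table did not call Fasn in control siRNA cells (log2 fold change -0.25, adjusted p = 0.0736).

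**Figure D1:**
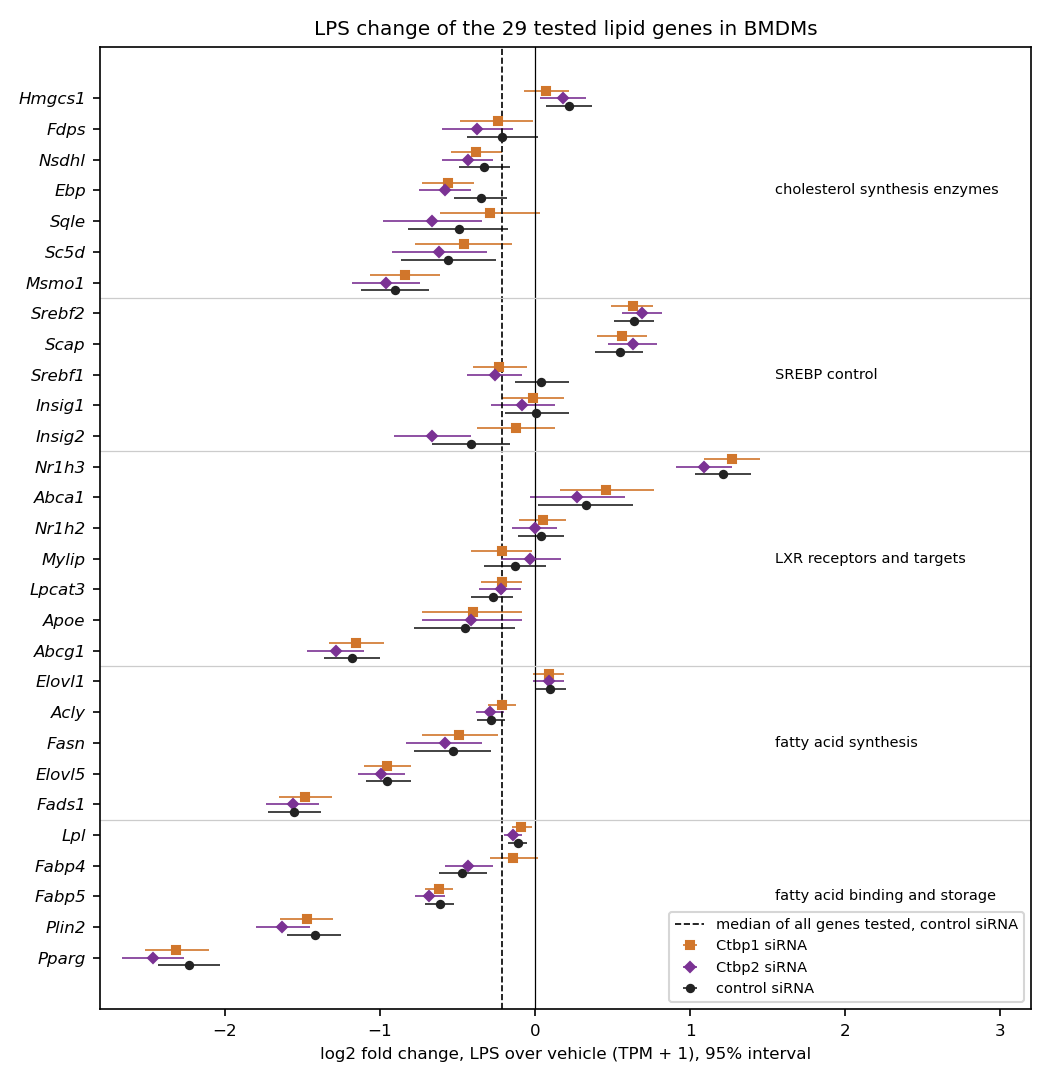
Each row is 1 of the 29 tested lipid genes and the horizontal axis is the log2 fold change of LPS over vehicle on log2(TPM + 1), with bars for the 95% interval. Squares, diamonds and circles are cells with Ctbp1, Ctbp2 and control siRNA. Pparg lies farthest left, between -2.46 and -2.23, and Nr1h3 farthest right, between 1.09 and 1.27, with the 3 symbols of a gene close together in most rows. The dashed line is the median of all genes in control siRNA cells (-0.21).

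The genes of fatty acid binding and storage were all called lower on TPM, 5 of 5, where 53.1% of all genes were called lower. Lpl turned to higher after scaling, and the authors' deposited table did not call Fabp4 in control siRNA cells. Pparg was at 9.51, 8.63 and 11.9 TPM in the LPS libraries of control siRNA cells, against 52.2, 50.7 and 48.3 TPM with vehicle. The LPS mean of 10 ± 1.71 TPM was 19.9% of the vehicle mean of 50.4 ± 2 TPM (SD, n = 3 each), a log2 fold change of -2.23 (SE 0.10, adjusted p = 1.15e-12). Over all siRNA backgrounds the 9 LPS libraries lay between 6.96 and 11.9 TPM and the 9 vehicle libraries between 45.2 and 54.1 TPM, with no overlap. Plin2 encodes perilipin 2, the coat protein of macrophage lipid droplets. It was at 596, 630 and 788 TPM with LPS, against 1802, 1872 and 1699 TPM with vehicle, a log2 fold change of -1.42 (SE 0.08, adjusted p = 6.08e-11). LPS replicate 4 was the highest of its group for Plin2 and also for Pparg, Fads1 and Nr1h3, yet stayed clear of the vehicle libraries.

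Fabp5 and Fabp4 encode fatty acid-binding proteins of the cytoplasm. Fabp5 was at 587, 526 and 573 TPM with LPS, against 863, 869 and 849 TPM with vehicle (log2 fold change -0.61, SE 0.04, adjusted p = 1.18e-09). Fabp4 was at 64.8, 63.9 and 60.1 TPM with LPS, against 87.9, 90.6 and 83.6 TPM with vehicle (log2 fold change -0.47, SE 0.07, adjusted p = 1.76e-05). In both genes every LPS library was below every vehicle library. The authors' deposited table called Fabp5 lower (-0.29, adjusted p = 6.44e-06) and did not call Fabp4 (-0.14, adjusted p = 0.246) in control siRNA cells. Lpl, the lipase that frees fatty acids from lipoproteins, was the most abundant of the 47 transcripts at 4545, 4473 and 4641 TPM with LPS, against 4774, 5140 and 4875 TPM with vehicle. Its change was small and changed direction with the scaling: -0.11 on TPM (SE 0.03, adjusted p = 0.00172) and 0.09 after median-of-ratios scaling (adjusted p = 0.00787), so no direction is given for it. The authors' deposited table gave Lpl 0.21 (adjusted p = 1.8e-10).

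Fatty acid synthesis had 4 of 5 tested genes called, all lower on TPM, and 1 higher and 3 lower after scaling. The shares of all genes were 23.3% higher and 53.1% lower on TPM, and 36% and 35.7% after scaling. Fads1 is the delta-5 desaturase that makes arachidonic acid, the precursor of prostaglandins and leukotrienes. It was at 16.3, 16 and 20 TPM with LPS, against 53.9, 53.5 and 51.3 TPM with vehicle, a mean 33% of the vehicle level (log2 fold change -1.55, SE 0.08, adjusted p = 1.45e-11). Elovl5, which elongates polyunsaturated fatty acids on the same route, was at 20.3, 20.5 and 24.8 TPM with LPS, against 40.6, 46.8 and 41.6 TPM with vehicle (log2 fold change -0.95, SE 0.07, adjusted p = 1.85e-09). Neither gene had overlapping groups. Fasn averaged 8.74 ± 1.47 TPM with LPS, against 13 ± 1.67 TPM with vehicle (SD, n = 3 each), and Acly, which makes cytosolic acetyl-CoA from citrate, averaged 61.5 ± 2.81 TPM with LPS, against 74.9 ± 0.902 TPM. The change of Acly (-0.28 on TPM) was called in each background on TPM and in none of them after scaling. The authors' deposited table did not call Acly in control siRNA cells (0.04, adjusted p = 0.352) and called it higher with Ctbp1 siRNA (0.09, adjusted p = 0.0386). Elovl1, an elongase of long saturated chains, had a log2 fold change of 0.10 on TPM (adjusted p = 0.0557) and was called higher after scaling in all 3 siRNA backgrounds (0.31 in control siRNA cells). In the authors' deposited table Elovl1 had 0.43 (adjusted p = 1.92e-20).

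Cholesterol synthesis had 6 of 7 tested enzymes called, 1 higher and 5 lower, against 76.4% of all genes (23.3% higher and 53.1% lower). Msmo1, the sterol C4-methyl oxidase, was at 23.8, 22.6 and 26.6 TPM with LPS, against 43.7, 46.8 and 47.9 TPM with vehicle (log2 fold change -0.90, SE 0.11, adjusted p = 6.37e-07). Sc5d, a desaturase near the end of the route, was at 7.51, 9.7 and 8.54 TPM with LPS, against 12.1, 14.6 and 12.6 TPM with vehicle (log2 fold change -0.56, SE 0.15, adjusted p = 0.00225). Both sets of LPS libraries lay wholly below the vehicle libraries. Hmgcs1 was the one enzyme called higher, at 31.3, 32.5 and 31.1 TPM with LPS, against 25.5, 27.3 and 28.5 TPM with vehicle (log2 fold change 0.22, SE 0.07, adjusted p = 0.00955). Sqle, Ebp and Nsdhl, which act after squalene is made, were called lower by 0.33 to 0.49 on the log2 scale, and Fdps, an earlier enzyme, had -0.21 (adjusted p = 0.0954). After scaling 3 of the 7 were called, 1 higher and 2 lower, against 71.8% of all genes (36% higher and 35.7% lower). Sqle, Ebp and Nsdhl were no longer called. The authors' deposited table called Hmgcs1 higher (0.55, adjusted p = 3.86e-10) and Msmo1 lower (-0.60, adjusted p = 6.69e-07). It did not call Sc5d (-0.27, adjusted p = 0.136), Sqle, Ebp, Nsdhl or Fdps in control siRNA cells. The 18 synthesis enzymes together summed to 202 ± 10.2 TPM with LPS, against 264 ± 14.6 TPM with vehicle (SD, n = 3 each).

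SREBP control genes were split. Srebf2 was at 61.3, 63.6 and 63.7 TPM with LPS, against 36.3, 41.5 and 42.5 TPM with vehicle (log2 fold change 0.64, SE 0.06, adjusted p = 5.78e-08). Scap was at 49.4, 44.7 and 42 TPM with LPS, against 31, 31.4 and 29.6 TPM with vehicle (log2 fold change 0.55, SE 0.07, adjusted p = 3.79e-06). For both, each of the 9 LPS libraries exceeded each of the 9 vehicle libraries, 61.3 to 69.7 against 36.3 to 43.9 TPM for Srebf2 and 42 to 52.4 against 28.2 to 32.6 TPM for Scap. Srebf1, the gene of SREBP1, was at 36.9, 32.4 and 38 TPM with LPS, against 36.4, 32.2 and 35.6 TPM with vehicle (adjusted p = 0.663). Insig1 was at 21.3, 19.3 and 22.7 TPM with LPS, against 20.1, 20.7 and 21.7 TPM with vehicle (adjusted p = 0.904), and the groups overlapped in both genes. Insig2 was at 22.2, 22.2 and 18.9 TPM with LPS, against 27.9, 30.2 and 26.7 TPM with vehicle, a call on TPM (log2 fold change -0.41, SE 0.12, adjusted p = 0.00487) that scaling did not keep. After scaling 4 of these 5 genes were called, all higher, with Srebf1 at 0.24 (adjusted p = 0.0115) and Insig1 at 0.21 (adjusted p = 0.0437). Of all genes 36% were called higher after scaling. The authors' deposited table also called Srebf1 (0.37, adjusted p = 0.000135) and Insig1 (0.34, adjusted p = 0.000507) higher in control siRNA cells. It did not call Insig2 there (-0.09, adjusted p = 0.63).

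Among LXR receptors and targets 5 of 7 were called on TPM, 2 higher and 3 lower, and 4 after scaling, 3 higher and 1 lower. The shares of all genes were 23.3% higher and 53.1% lower on TPM, and 36% and 35.7% after scaling. Nr1h3 was at 51.2, 50.3 and 64.7 TPM with LPS, against 23.4, 22.1 and 24 TPM with vehicle, 239% of the vehicle mean (log2 fold change 1.21, SE 0.09, adjusted p = 8.83e-10). Nr1h2 was at 103, 101 and 122 TPM with LPS, against 111, 105 and 100 TPM with vehicle (log2 fold change 0.04, adjusted p = 0.592). Nr1h2 was called higher after scaling in all 3 siRNA backgrounds (0.25 in control siRNA cells, adjusted p = 0.00242), and it had 0.37 in the authors' deposited table (adjusted p = 3.9e-06). Abcg1, which exports cholesterol to high-density lipoprotein, was at 57.7, 63.5 and 62.4 TPM with LPS, against 154, 132 and 135 TPM with vehicle (log2 fold change -1.18, SE 0.09, adjusted p = 1.49e-09). Abca1, the exporter to lipid-poor apolipoprotein, moved the other way, at 93.2, 74.9 and 86.1 TPM with LPS, against 72.9, 62.8 and 66.1 TPM with vehicle. The Abca1 groups did not overlap, but its call was at the threshold (log2 fold change 0.33, SE 0.14, adjusted p = 0.0497) and was kept in 2 of 6 fits that left out 1 library, being lost without LPS replicate 1 or 4 or vehicle replicate 3 or 4. After scaling Abca1 was called higher in all 3 siRNA backgrounds (0.53 in control siRNA cells, adjusted p = 0.00387), and the authors' deposited table gave it 0.66 (adjusted p = 3.36e-05). Apoe, a secreted carrier of cholesterol, was at 1867, 1657 and 1931 TPM with LPS, against 2650, 2165 and 2670 TPM with vehicle (log2 fold change -0.45, SE 0.15, adjusted p = 0.014). Abca1 and Apoe were both lowest in replicate 3 of all 6 BMDM groups, a likeness by replicate number that the fit left out. The Apoe call was lost after scaling, and also without LPS replicate 3 or vehicle replicate 4. Lpcat3, which puts polyunsaturated chains into phospholipids, had -0.27, which scaling ended as a call, and Mylip, the ubiquitin ligase that removes lipoprotein receptors, had -0.13 (adjusted p = 0.213). The authors' deposited table called neither Apoe (-0.13, adjusted p = 0.552) nor Lpcat3 (0.05, adjusted p = 0.572) in control siRNA cells.

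**Figure D2:**
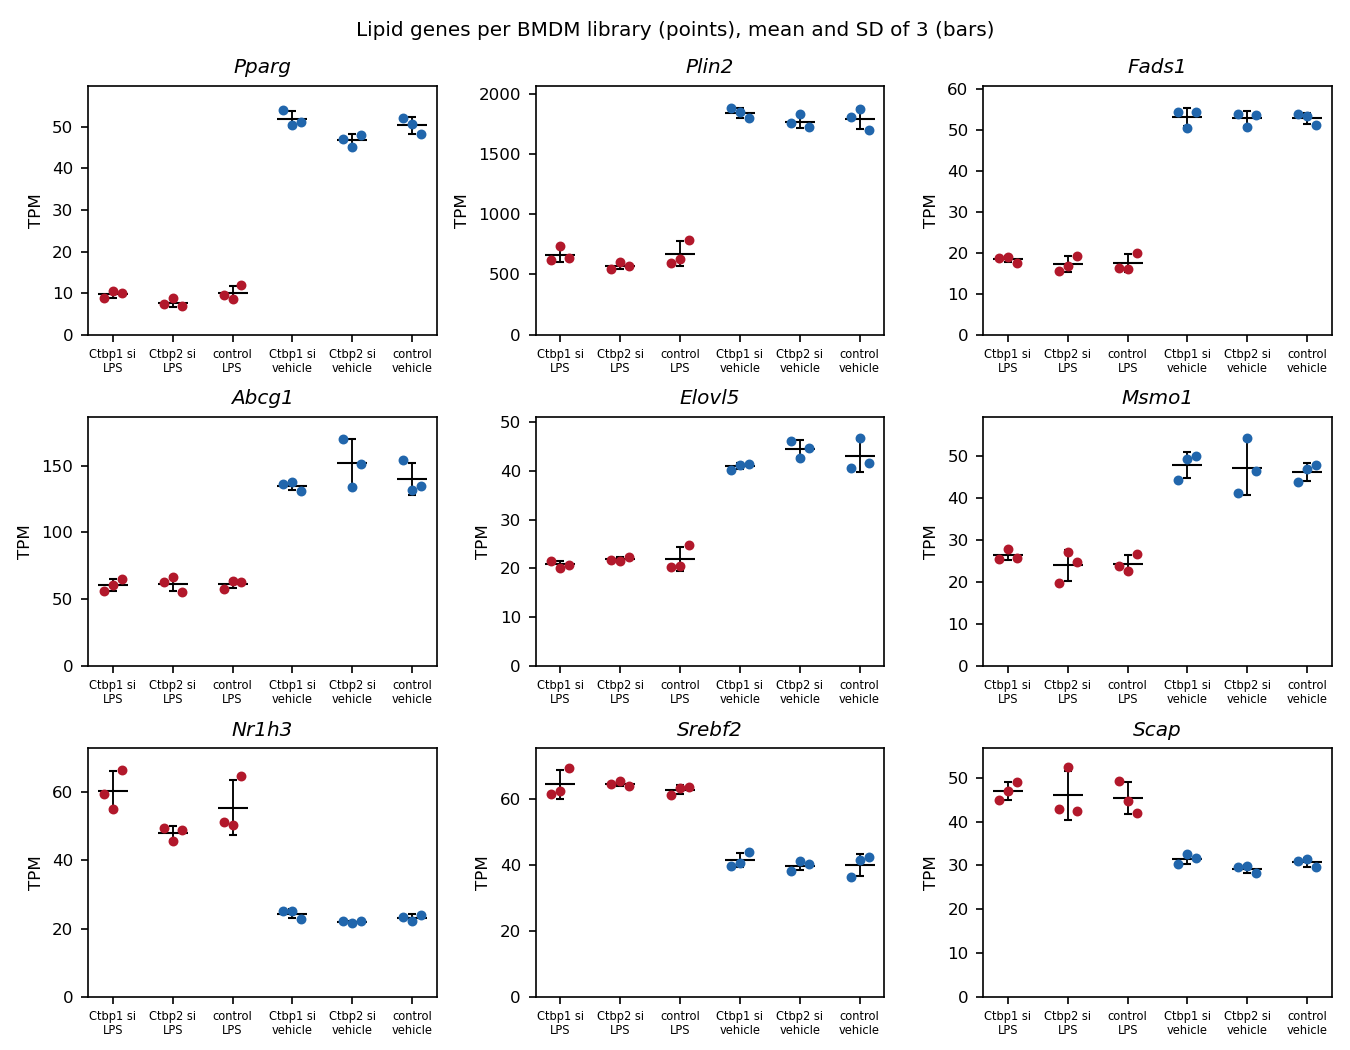
TPM (vertical axes, from 0) of 9 lipid genes in the 6 BMDM groups, with 1 point per library, a long bar at the mean and short bars at 1 SD of the 3 libraries. The 3 LPS groups stand left of the 3 vehicle groups in each panel. Pparg, Plin2, Fads1, Abcg1, Elovl5 and Msmo1 sit lower in all 9 LPS libraries, and Nr1h3, Srebf2 and Scap sit higher, whichever siRNA was used.

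With the threshold on the mean lowered to 1 TPM, 44 of the 47 genes could be tested and 30 were called in control siRNA cells, 5 higher and 25 lower, against 72.2% of 12146 genes (18.6% higher and 53.6% lower). Ch25h makes 25-hydroxycholesterol, an oxysterol that ligates LXR and blocks SREBP processing. It was at 11, 13 and 8.41 TPM with LPS, against 1.44, 1.88 and 0.594 TPM with vehicle (log2 fold change 2.38, SE 0.22, adjusted p = 5.33e-08), the largest rise among the 44. Scd2, a stearoyl-CoA desaturase, was at 0.967, 0.625 and 1.38 TPM with LPS, against 6.71, 5.6 and 5.93 TPM with vehicle (log2 fold change -1.85, SE 0.16, adjusted p = 2.92e-08). Dhcr7, which completes cholesterol from 7-dehydrocholesterol, was at 3.75, 4.03 and 4.65 TPM with LPS, against 14.1, 11.1 and 13 TPM with vehicle (log2 fold change -1.41, SE 0.13, adjusted p = 4.85e-08). No library overlapped between the arms for these 3 genes in any siRNA background, with ranges over the 9 LPS and 9 vehicle libraries of 8.41 to 20 against 0.48 to 2.01 TPM, 0.625 to 1.38 against 4.89 to 7.77 TPM, and 2.79 to 4.76 against 11.1 to 16.1 TPM. Acaca, the acetyl-CoA carboxylase, averaged 5.55 ± 0.686 TPM with LPS, against 10 ± 1.03 TPM with vehicle (SD, n = 3 each). Idi1, Fdft1, Cyp51, Hsd17b7, Mvd, Acat2 and Stard4 were not called at this threshold, with log2 fold changes between -0.33 and 0.26. The authors' deposited table called Hsd17b7 (0.74, adjusted p = 0.00262), Fdft1 (0.55, adjusted p = 0.00215), Mvd (0.43, adjusted p = 0.00361) and Idi1 (0.38, adjusted p = 0.0267) higher. It did not call Cyp51, Acat2 or Stard4. Fads2 and Scd1 stayed at or under 1.04 TPM in control siRNA libraries.

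Related genes that are not among the 47 were read from a list of 53 in sterol handling, LXR signalling and fatty acid use. In control siRNA cells 34 of the 42 tested were called with LPS, 5 higher and 29 lower, with a median of -0.45 beside -0.21 over all genes. Over all genes 76.4% were called, 23.3% higher and 53.1% lower. All 11 called genes of sterol handling were lower, as were all 5 called LXR partners and targets, and of 18 called genes of fatty acid use 5 were higher and 13 lower. After scaling 30 were called, 7 higher and 23 lower, against 71.8% of all genes (36% higher and 35.7% lower). Arl4c, a known LXR target, averaged 6.73 ± 2.62 TPM with LPS, against 80.3 ± 2.35 TPM with vehicle (log2 fold change -3.45, adjusted p = 9.02e-13). Cyp27a1, the mitochondrial sterol 27-hydroxylase, averaged 10.9 ± 1.37 TPM with LPS, against 52.1 ± 8.68 TPM with vehicle (log2 fold change -2.15, adjusted p = 2.31e-10). Acsl1, an acyl-CoA synthetase, rose to 234 ± 35.6 TPM with LPS, against 24.7 ± 1.35 TPM with vehicle (log2 fold change 3.18, adjusted p = 3.21e-15). Fabp3, another fatty acid-binding protein, rose to 33.6 ± 5.37 TPM with LPS, against 5.85 ± 0.915 TPM with vehicle (log2 fold change 2.33, adjusted p = 6.55e-11; SD, n = 3 in each group). The stromal marker Pdgfrb moved with LPS too, its list summing to 4.11 to 7.6 TPM with LPS, against 0.0633 to 0.11 TPM with vehicle. The list had 1 of 7 genes above 1 TPM, with Dcn and Lum at 0 in the LPS libraries of control siRNA cells, and its part in these results was not tested.

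The same LPS contrast in the other siRNA backgrounds used separate libraries and gave nearly the same pattern. With Ctbp1 siRNA 21 of 29 genes were called, 4 higher and 17 lower, against 75.4% of all genes (24.5% higher and 50.9% lower), and with Ctbp2 siRNA 24 were called, 4 higher and 20 lower, against 78.7% (23.5% and 55.2%). After scaling there were 8 higher and 10 lower with Ctbp1 siRNA, against 71.6% of all genes (35.8% higher and 35.8% lower), and 8 higher and 14 lower with Ctbp2 siRNA, against 73.2% (36.7% and 36.5%). The authors' deposited table called 10 higher and 8 lower of the 29 with Ctbp1 siRNA, against 71.3% of all genes (43.6% and 27.7%), and 10 higher and 11 lower with Ctbp2 siRNA, against 72.9% (44.7% and 28.2%). In all 3 backgrounds 3 genes were called higher on TPM (Nr1h3, Scap and Srebf2) and 15 lower, where 67.2% of all genes were called the same way in all 3 (20.5% higher and 46.7% lower). After scaling 8 were called higher in all 3, with Abca1, Elovl1, Hmgcs1, Lpl and Nr1h2 added, and 8 lower, against 62.4% of all genes (31.3% and 31%). Across the 29 genes, the LPS fold changes in Ctbp1 siRNA cells and in control siRNA cells had a Pearson r of 0.984 with a median absolute difference of 0.06 on the log2 scale, and those in Ctbp2 siRNA cells and control siRNA cells had an r of 0.991 with the same median. These are descriptions over genes, which are not independent replicates. Pparg had -2.31 with Ctbp1 siRNA, -2.46 with Ctbp2 siRNA and -2.23 with control siRNA. Abcg1 had -1.15 and -1.28 with these siRNAs, against -1.18 with control siRNA, and Nr1h3 had 1.27 and 1.09, against 1.21.

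The difference in LPS response between siRNA backgrounds was tested as an interaction. None of the 29 genes was called for Ctbp1 siRNA, where 2 had an unadjusted p under 0.05, or for Ctbp2 siRNA, where 1 had. The interactions called 0.0126% and 0.101% of all genes. For Ctbp1 siRNA the largest was Fabp4, whose LPS fold change was -0.14 with Ctbp1 siRNA and -0.47 with control siRNA, a difference of 0.33 (95% interval 0.11 to 0.55, adjusted p = 0.454). For Ctbp2 siRNA it was Srebf1, with -0.26 against 0.04, a difference of -0.30 (95% interval -0.55 to -0.05, adjusted p = 0.464). The 95% interval lay within 0.5 of zero on the log2 scale for 22 and 24 of the 29 genes, so differences beyond that size lay outside the interval for those genes, and not for the others. Insig2 had an LPS fold change of -0.12 with Ctbp1 siRNA (adjusted p = 0.371), -0.66 with Ctbp2 siRNA (adjusted p = 7.69e-05) and -0.41 with control siRNA, and the difference between the Ctbp1 and Ctbp2 siRNA values was not tested.

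Few lipid genes passed the threshold with Ctbp1 or Ctbp2 siRNA against control siRNA, and the comparisons within vehicle share their control libraries, as do those within LPS. With Ctbp1 siRNA limma called none of the 29 genes with vehicle, against 0.215% of all genes, and none with LPS, against 0.152%. An unadjusted p under 0.05 was found for 4 genes with vehicle and 1 with LPS. The lowest adjusted p with vehicle was that of Fabp4, at 70.7, 68.2 and 68.4 TPM with Ctbp1 siRNA, against 87.9, 90.6 and 83.6 TPM with control siRNA (log2 fold change -0.33, adjusted p = 0.0745). In the authors' deposited table Srebf1 was called higher with Ctbp1 siRNA in vehicle (log2 fold change 0.32, adjusted p = 0.0293). In limma Srebf1 had 0.29 (adjusted p = 0.169), with 45.5, 41.5 and 41.3 TPM after Ctbp1 siRNA, against 36.4, 32.2 and 35.6 TPM with control siRNA, groups that did not overlap. Groups did not overlap for 19.2% of all tested genes in that comparison.

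Only Fabp4 among the 29 was called when Ctbp2 siRNA was set against control siRNA, both with vehicle and with LPS. It was at 79.9, 64.8 and 63.2 TPM with Ctbp2 siRNA in vehicle, against 87.9, 90.6 and 83.6 TPM with control siRNA (log2 fold change -0.34, adjusted p = 0.0327), where 1.02% of all genes were called. In LPS it was at 49.1, 52.5 and 51.3 TPM with Ctbp2 siRNA, against 64.8, 63.9 and 60.1 TPM with control siRNA (log2 fold change -0.30, adjusted p = 0.0333), where 3.17% of all genes were called (61 higher and 190 lower, or 124 and 81 after median-of-ratios scaling). An unadjusted p under 0.05 was found for 2 of the 29 in vehicle and for 6 in LPS. The Fabp4 groups did not overlap in either condition, as held for 23.4% of all tested genes in vehicle and 19.8% in LPS. Both calls were close to the threshold: the vehicle call was kept in 2 of 7 fits without 1 library, of which 1 left out an LPS library that enters only through the shared spread (adjusted p 0.00575 to 0.16) and the LPS call in 1 of 6 (0.0458 to 0.127), neither was made after median-of-ratios scaling, and the authors' deposited table gave Fabp4 adjusted p-values of 0.0909 in vehicle and 0.206 in LPS. The vehicle call ended without any one of the control siRNA libraries and without Ctbp2 siRNA replicate 3 or 4, and the LPS call ended without any one library except control siRNA replicate 4.

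Pparg in LPS was at 7.43, 8.72 and 6.96 TPM with Ctbp2 siRNA, against 9.51, 8.63 and 11.9 TPM with control siRNA, with overlap (log2 fold change -0.34, adjusted p = 0.069). Mylip in LPS was at 46, 36.2 and 45.7 TPM with Ctbp2 siRNA, against 36, 33 and 33.6 TPM with control siRNA (log2 fold change 0.30, adjusted p = 0.0896). The authors' deposited table called Mylip higher (log2 fold change 0.39, adjusted p = 0.0106) and also Acaca (0.41, adjusted p = 0.0498). The 95% interval of the difference lay within 0.5 of zero for 28 of 29 genes with Ctbp2 siRNA in vehicle and for 24 in LPS. For Ctbp1 siRNA the numbers were 28 in vehicle and 29 in LPS.

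**Figure D3:**
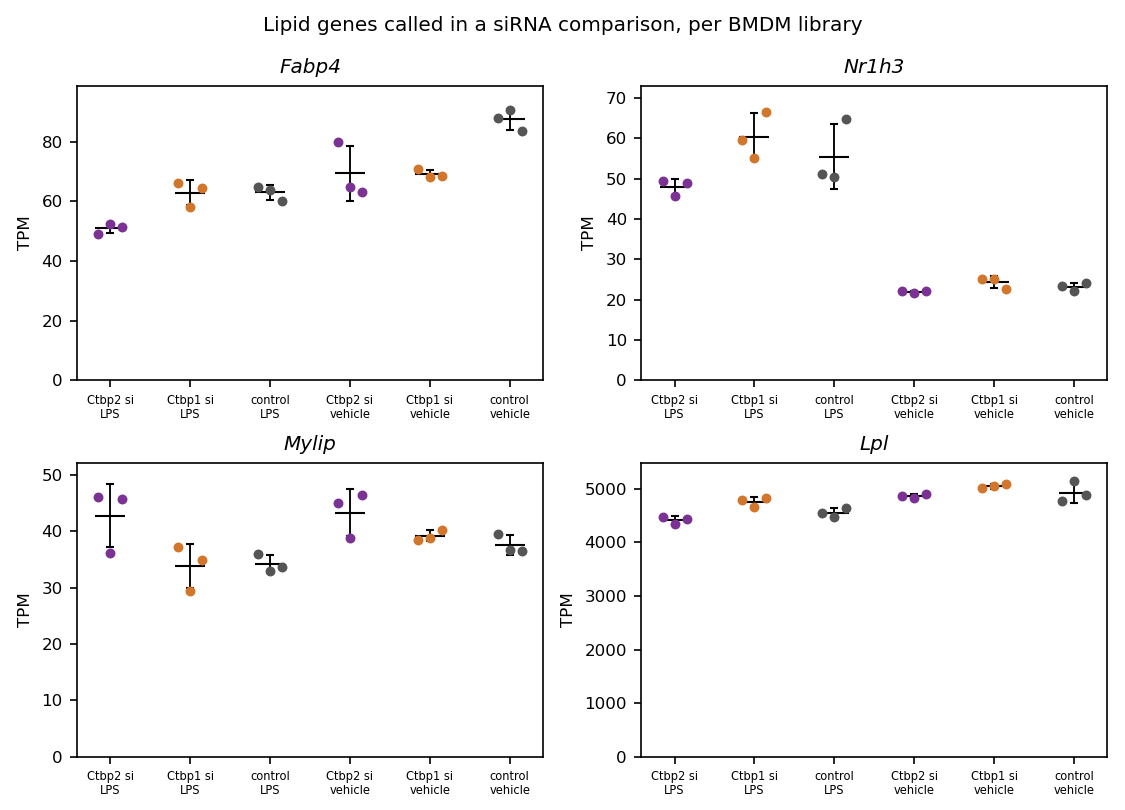
TPM (vertical axes, from 0) of Fabp4, Nr1h3, Mylip and Lpl per BMDM library by siRNA, with the LPS groups left of the vehicle groups and with the mean and SD of the 3 libraries. In LPS, Fabp4 with Ctbp2 siRNA (49.1 to 52.5 TPM) sits below Fabp4 with Ctbp1 siRNA (58.1 to 66.1 TPM) and with control siRNA (60.1 to 64.8 TPM), while Lpl differs by little against its level.

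Set against each other in LPS, the Ctbp2 and Ctbp1 siRNAs differed for 4 of 29 genes, where 6.79% of all genes were called (104 higher and 434 lower, or 210 and 121 after median-of-ratios scaling). Fabp4 was lower with Ctbp2 siRNA, at 49.1, 52.5 and 51.3 TPM, against 66.1, 58.1 and 64.5 TPM with Ctbp1 siRNA (log2 fold change -0.30, adjusted p = 0.0247). Nr1h3 was lower, at 49.5, 45.8 and 48.8 TPM with Ctbp2 siRNA, against 59.5, 55 and 66.6 TPM with Ctbp1 siRNA (log2 fold change -0.32, adjusted p = 0.0359). Lpl was lower by a small margin, at 4477, 4342 and 4433 TPM with Ctbp2 siRNA, against 4789, 4662 and 4822 TPM with Ctbp1 siRNA (log2 fold change -0.11, adjusted p = 0.0371). These 3 genes had no overlap between the groups, as held for 29% of all tested genes. Mylip was higher, at 46, 36.2 and 45.7 TPM with Ctbp2 siRNA, against 37.1, 29.4 and 34.8 TPM with Ctbp1 siRNA, with overlap (log2 fold change 0.33, adjusted p = 0.0477). Leaving out 1 library at a time gave between 0 and 6 calls. The 6 came without control siRNA LPS replicate 4, which is outside this comparison and enters only through the shared fit. All 4 genes lost their call without Ctbp1 siRNA replicate 4, without Ctbp2 siRNA replicate 1 and without Ctbp2 siRNA replicate 4. Scaling left 1 call. With vehicle no lipid gene was called between these siRNAs, none had an unadjusted p under 0.05, 0.947% of all genes were called, and all 29 intervals lay within 0.5 of zero. The Nr1h3 levels with vehicle were 22.1, 21.7 and 22.1 TPM with Ctbp2 siRNA and 25.2, 25.2 and 22.7 TPM with Ctbp1 siRNA.

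Outside the 47, Hadhb, a subunit of the mitochondrial trifunctional protein of fatty acid oxidation, was lower with Ctbp2 siRNA in both conditions. It averaged 67.7 ± 1.73 TPM in vehicle, against 79.9 ± 3.46 TPM with control siRNA (log2 fold change -0.24, adjusted p = 0.0351), and 48.1 ± 0.786 TPM in LPS, against 57.6 ± 2.90 TPM (-0.25, adjusted p = 0.0131). Smpdl3a, a phosphodiesterase and LXR target, was higher, at 263 ± 16.9 TPM in vehicle, against 217 ± 11 TPM with control siRNA (log2 fold change 0.28, adjusted p = 0.0456), and 167 ± 5.76 TPM in LPS, against 137 ± 10.9 TPM (0.28, adjusted p = 0.0221). Its vehicle call was lost with the threshold on the mean at 1 TPM (adjusted p = 0.0694). Nceh1, which frees cholesterol from its esters, was lower with Ctbp2 siRNA in LPS, at 42.9 ± 1.31 TPM, against 54.7 ± 7.92 TPM with control siRNA (-0.33, adjusted p = 0.0131; SD, n = 3 in each group). These were 3 of the 42 tested genes of that list in LPS, where 3.17% of all genes were called, and 2 in vehicle, where 1.02% were. All of these calls were close to the threshold: none was made on the 6 libraries compared alone (adjusted p 0.0634 to 0.242), and both vehicle calls, and that of Smpdl3a in LPS, were lost without a threshold on the mean. The vehicle call of Hadhb was lost without any 1 of the 6 libraries, and that of Smpdl3a without any 1 except Ctbp2 siRNA replicate 3. In LPS all 3 genes lost their call without Ctbp2 siRNA replicate 1, and Smpdl3a also without Ctbp2 siRNA replicate 4 or control siRNA replicate 3.

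In LPS-treated J774.1 cells labelled dKO, Lpl and the fatty acid desaturases Scd2, Fads1 and Fads2 were higher than in wildtype, Fabp5 was much lower, and several cholesterol synthesis enzymes were slightly higher. Of the 36 tested genes 18 were called, 15 higher and 3 lower, where 42% of all genes were called, 25.4% higher and 16.6% lower. Their median log2 fold change was 0.10, beside 0.03 over all genes. The groups did not overlap for 19 of the 36 genes and for 53.9% of all genes. After median-of-ratios scaling 15 were called, 12 higher and 3 lower, against 43% of all genes (22% higher and 21% lower), and the authors' deposited table called 10 of the 36 higher and 5 lower, against 46.7% of all genes (19.5% and 27.2%). The number of calls was between 11 and 17 when 1 library was left out, the lowest number without dKO library 2, dKO library 3 or wildtype library 2. Dendritic cell marker Itgax moved with the label too: its list summed to 6.02 to 9.06 TPM in the libraries labelled dKO and to 1 to 1.93 TPM in wildtype, with 1 of 7 genes above 1 TPM and Flt3 and Cd209a at 0 in the libraries labelled dKO, and its part in these results was not tested.

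**Figure D4:**
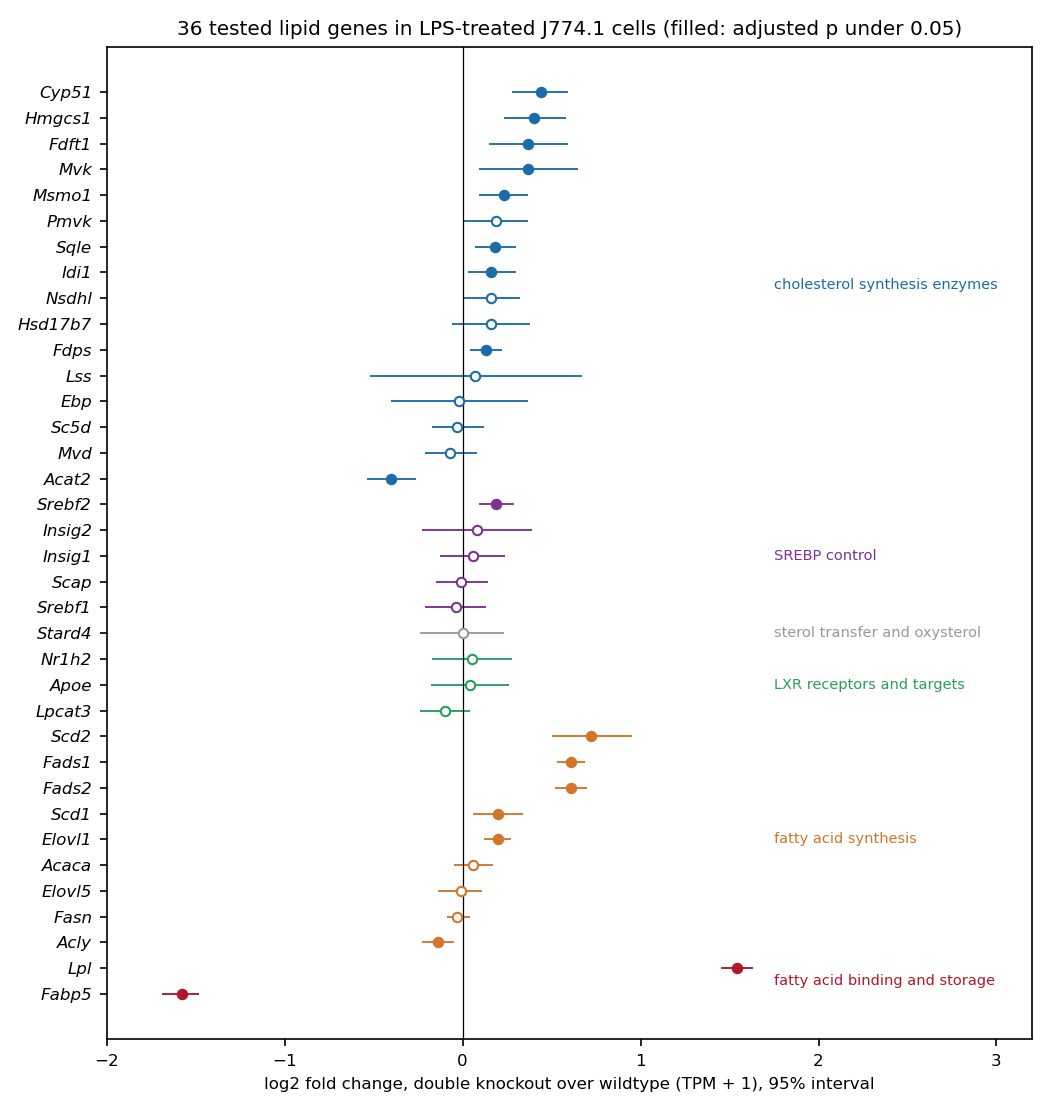
Log2 fold change of J774.1 cells labelled dKO over wildtype, both in LPS, for the 36 tested lipid genes by role, with bars for the 95% interval and filled circles for an adjusted p under 0.05. Lpl stands alone on the right at 1.54 and Fabp5 alone on the left at -1.58. Scd2, Fads1 and Fads2 follow between 0.61 and 0.72, and all other genes lie within 0.44 of zero.

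The genes of fatty acid binding and storage that could be tested moved in opposite directions. Lpl was at 279, 296 and 281 TPM in the libraries labelled dKO, against 100, 97.6 and 94.2 TPM in wildtype, 293% of the wildtype mean (log2 fold change 1.54, SE 0.04, adjusted p = 1.61e-08). Fabp5 was at 23.5, 23.4 and 22.1 TPM in the libraries labelled dKO, against 70.1, 72.7 and 70.3 TPM in wildtype, 32.4% of the wildtype mean (log2 fold change -1.58, SE 0.05, adjusted p = 3.98e-08). Each kept its call in all 6 fits without 1 library. Fabp4 was under the 10 TPM mean. It was at 2.24, 1.65 and 2.01 TPM in the libraries labelled dKO, against 6.94, 5.92 and 6.08 TPM in wildtype, and was called lower with the threshold on the mean at 1 TPM (log2 fold change -1.31, adjusted p = 9.6e-05), where 18 of 44 genes were called, 14 higher and 4 lower, against 36.1% of all genes (23% and 13.2%). Pparg was listed at 0 in all 6 J774.1 libraries, and Plin2 averaged 7.71 ± 1.02 TPM in the libraries labelled dKO, against 8.09 ± 1.33 TPM in wildtype (SD, n = 3 each).

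Fatty acid synthesis had 6 of 9 tested genes called, 5 higher and 1 lower, against 42% of all genes (25.4% higher and 16.6% lower). Scd2 was at 51.7, 60.9 and 61.5 TPM in the libraries labelled dKO, against 39.1, 30.4 and 35.1 TPM in wildtype (log2 fold change 0.72, SE 0.10, adjusted p = 0.000508). Fads1 was at 93.8, 93.5 and 91.8 TPM, against 60, 59.6 and 61.7 TPM in wildtype (log2 fold change 0.61, SE 0.04, adjusted p = 2.27e-06). Fads2, the delta-6 desaturase that acts before Fads1 on the same route, was at 119, 111 and 112 TPM, against 74.7, 75.2 and 73.6 TPM in wildtype (log2 fold change 0.61, SE 0.04, adjusted p = 4.55e-06). No dKO library of these 3 genes overlapped wildtype, and each stayed called without any 1 library. Elovl1 was at 175, 178 and 168 TPM in the libraries labelled dKO, against 149, 156 and 149 TPM in wildtype, and Scd1 was at 16.5, 17.2 and 17.5 TPM, against 14.2, 14.6 and 15.4 TPM, both with a log2 fold change of 0.20. Acly was at 79.2, 84.9 and 83.5 TPM in the libraries labelled dKO, against 91.8, 88.5 and 92.3 TPM in wildtype (log2 fold change -0.14). In the authors' deposited table Scd1 went the other way, called lower (log2 fold change -0.29, adjusted p = 0.0162), so no direction is given for it. That table did not call Elovl1 (0.09, adjusted p = 0.0781). The call of Scd1 was lost without dKO library 2 or 3 or wildtype library 1 or 2, and that of Acly without dKO library 1 or wildtype library 1 or 3. Fasn, the synthase itself, was at 171, 174 and 177 TPM, against 174, 180 and 177 TPM in wildtype, and was not called by limma, nor was Acaca (0.06) or Elovl5 (-0.01), while the authors' deposited table called Fasn lower (-0.12, adjusted p = 4.67e-05).

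Cholesterol synthesis had 9 of 16 tested enzymes called, 8 higher and 1 lower, against 42% of all genes (25.4% higher and 16.6% lower). Its median was 0.16, beside 0.03 over all genes. Cyp51, the lanosterol demethylase, was at 32.5, 36.6 and 34.4 TPM in the libraries labelled dKO, against 25.1, 27.2 and 23.5 TPM in wildtype (log2 fold change 0.44, SE 0.07, adjusted p = 0.0011). Hmgcs1 was at 37.3, 44.3 and 42.3 TPM, against 32.2, 28.4 and 32.3 TPM in wildtype (log2 fold change 0.40, SE 0.08, adjusted p = 0.00339). Acat2, the thiolase that starts the route, went the other way, at 17.7, 19.2 and 17.4 TPM in the libraries labelled dKO, against 24.2, 25.2 and 23 TPM in wildtype (log2 fold change -0.40, SE 0.06, adjusted p = 0.00106). These 3 had no overlap and kept their calls in all 6 fits without 1 library. The authors' deposited table called all 3 in the same direction, with Cyp51 at 0.17 (adjusted p = 0.0273).

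The other called enzymes of the route changed by less and rested on fewer libraries. Fdft1, which makes squalene, was at 15.2, 19.1 and 19.2 TPM in the libraries labelled dKO, against 14.3, 12.7 and 13.5 TPM in wildtype (log2 fold change 0.37, adjusted p = 0.0144). Mvk, the mevalonate kinase, was at 10.8, 14.2 and 15.2 TPM, against 9.24, 10 and 11 TPM in wildtype, with overlap (0.37, adjusted p = 0.0399). Msmo1 was at 82.9, 97.4 and 92.9 TPM, against 79.5, 73.2 and 79.5 TPM in wildtype (0.23, adjusted p = 0.0187). Sqle, the squalene epoxidase, was at 42.7, 47.9 and 46.9 TPM, against 40.4, 39.7 and 40.3 TPM (0.18, adjusted p = 0.0207). Idi1, the isopentenyl isomerase, was at 67.4, 79 and 74.1 TPM, against 66.3, 65.8 and 63.9 TPM (0.16, adjusted p = 0.0486). Fdps, the farnesyl diphosphate synthase, was at 190, 208 and 208 TPM, against 187, 183 and 183 TPM (0.13, adjusted p = 0.0298). In all of them dKO library 1 was the lowest of its group. Fdft1 and Msmo1 kept their calls in 3 of 6 fits without 1 library, Mvk in 2, and Sqle, Idi1 and Fdps in 1, and every one of the 6 lost it without dKO library 2, without dKO library 3 and without wildtype library 2. The authors' deposited table also called Fdft1 (0.29), Mvk (0.36) and Msmo1 (0.20) higher. It did not call Sqle (0.12, adjusted p = 0.0672), Idi1 (0.06, adjusted p = 0.406) or Fdps (0.09, adjusted p = 0.114). The 18 enzymes together summed to 719 ± 53.4 TPM in the libraries labelled dKO and to 645 ± 14.4 TPM in wildtype (SD, n = 3 each).

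Of the SREBP control genes, Srebf2 alone was called, at 102, 108 and 100 TPM in the libraries labelled dKO, against 88.7, 94.4 and 88.1 TPM in wildtype (log2 fold change 0.19, SE 0.04, adjusted p = 0.00773), kept in all 6 fits without 1 library. Srebf1 was at 31.5, 39.1 and 36.4 TPM, against 37, 36.1 and 36.5 TPM in wildtype, and Scap was at 53, 54.4 and 51.3 TPM, against 48.1, 55.1 and 56.5 TPM. Insig1 was at 31.5, 39.6 and 37.7 TPM, against 35.6, 33.5 and 35 TPM in wildtype, and Insig2 was at 14.8, 17.2 and 12.2 TPM, against 11.6, 15.4 and 14.7 TPM. These 4 had overlapping groups and log2 fold changes between -0.04 and 0.08. None of the 3 tested LXR genes was called: Nr1h2 was at 37.1, 42.7 and 39.3 TPM in the libraries labelled dKO, against 45, 34.9 and 35.5 TPM in wildtype, and Apoe and Lpcat3 had log2 fold changes of 0.04 and -0.10. Abcg1 was under the 10 TPM mean, at 7.45, 8.88 and 5.98 TPM in the libraries labelled dKO, against 2.11, 3.17 and 4.15 TPM in wildtype, and was called higher with the threshold at 1 TPM (log2 fold change 1.04, adjusted p = 0.00573). Nr1h3 had 0.25 at that threshold (adjusted p = 0.0938), and Abca1 stayed under 0.301 TPM in every J774.1 library.

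**Figure D5:**
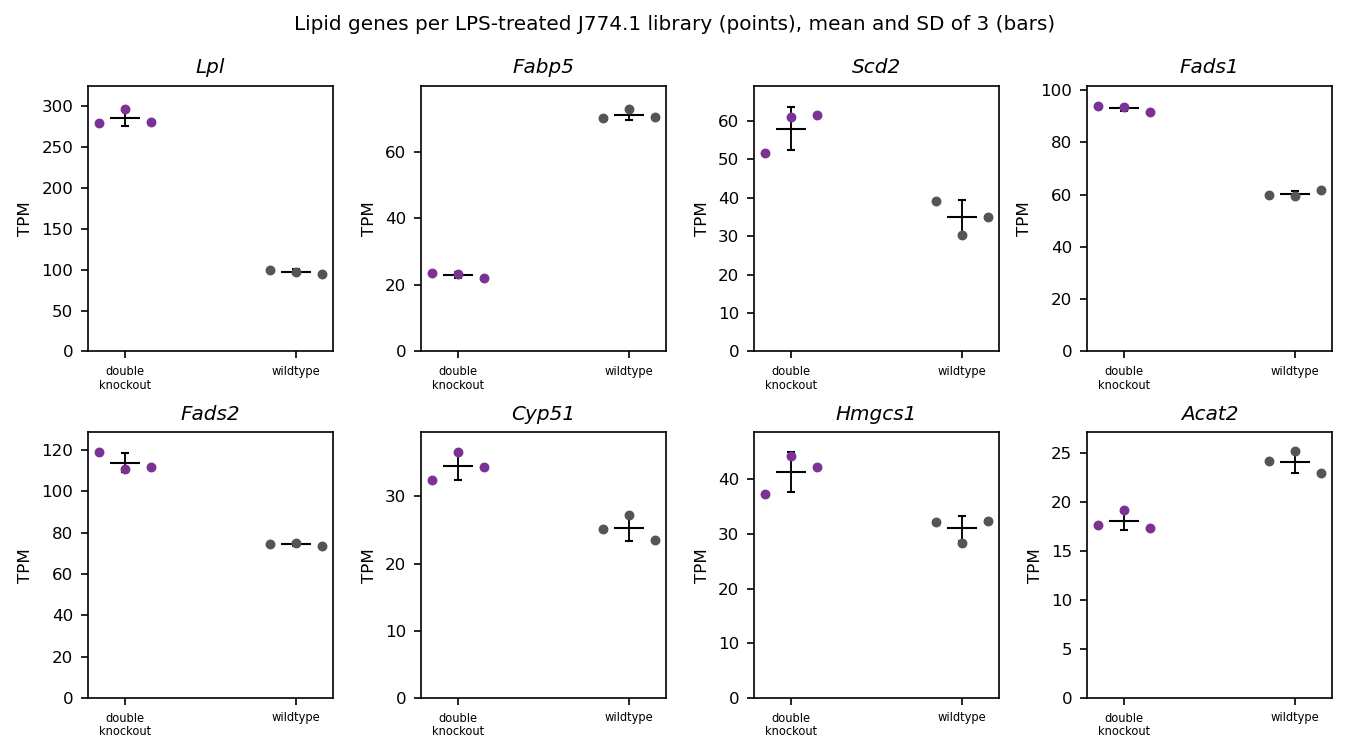
TPM (vertical axes, from 0) of 8 lipid genes per LPS-treated J774.1 library, with points for libraries and bars for the mean and SD of 3. Libraries labelled dKO stand left of wildtype. Lpl, Scd2, Fads1, Fads2, Cyp51 and Hmgcs1 are higher in every dKO library than in any wildtype library, and Fabp5 and Acat2 are lower.

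Of the 53 related genes outside the list, 32 were tested in J774.1 cells and 19 were called, 16 higher and 3 lower. Over all genes 42% were called, 25.4% higher and 16.6% lower. Hilpda, a lipid droplet protein that restrains lipolysis, averaged 8.68 ± 0.992 TPM in the libraries labelled dKO, against 19 ± 1.31 TPM in wildtype (log2 fold change -1.05, adjusted p = 3.23e-05). Ppard, the gene of PPAR delta, averaged 9.24 ± 0.679 TPM, against 18.4 ± 0.848 TPM in wildtype (log2 fold change -0.92, adjusted p = 1.71e-05). Npc2 and Lipa, a sterol carrier and the acid lipase of the lysosome, were higher. Npc2 averaged 95.4 ± 3.27 TPM in the libraries labelled dKO, against 46.2 ± 2.09 TPM in wildtype (log2 fold change 1.03, adjusted p = 6.08e-07), and Lipa averaged 95.1 ± 2.90 TPM, against 56.7 ± 2.10 TPM (0.74, adjusted p = 2.54e-06; SD, n = 3 in each group).

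The fold changes under the dKO label and under the siRNAs can be set side by side for the 22 lipid genes tested in both systems. Those of the dKO label and of Ctbp2 siRNA in LPS had a Pearson r of 0.150, and those of the dKO label and of Ctbp1 siRNA in LPS had 0.324, a description across genes with no test. The sign was the same for 7 of the 22 genes with Ctbp2 siRNA and for 15 with Ctbp1 siRNA. Over the 29 tested genes the changes in LPS ran from -0.34 to 0.30 with Ctbp2 siRNA and from -0.07 to 0.16 with Ctbp1 siRNA. The all-gene medians were -0.05 and 0.01 with these siRNAs and 0.03 with the dKO label. The share of all genes with the same sign was not computed, so no likeness to either siRNA is read from these counts. Lpl had a log2 fold change of 1.54 with the dKO label, -0.04 with Ctbp2 siRNA in LPS and 0.06 with Ctbp1 siRNA in LPS. Fabp5 had -1.58 with the dKO label, -0.09 with Ctbp2 siRNA and -0.03 with Ctbp1 siRNA.

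Some lipid genes stood at very different levels in the cell line and the primary cells, and others at like levels. Over all libraries of BMDMs and of J774.1 cells, Elovl1 averaged 161 and 163 TPM, Srebf1 37.2 and 36.1, Hmgcs1 30.3 and 36.1, and Lpcat3 34 and 29. The cells also differed in strain, sex and siRNA treatment. The tables were normalized separately, so the levels stand side by side with no test. With LPS, wildtype J774.1 cells had Fasn at 177 ± 2.99 TPM and Fads2 at 74.5 ± 0.834 TPM, where control siRNA BMDMs had 8.74 ± 1.47 and 0.341 ± 0.0662 TPM. Scd2 averaged 34.9 ± 4.38 TPM in wildtype J774.1 cells and 0.99 ± 0.377 TPM in control siRNA BMDMs, and Idi1 averaged 65.3 ± 1.26 and 10.6 ± 0.387 TPM. The efflux and storage genes ran the other way. Abca1 averaged 0.263 ± 0.0344 TPM in wildtype J774.1 cells and 84.7 ± 9.20 TPM in control siRNA BMDMs, Apoe 19.6 ± 1.00 and 1818 ± 144 TPM, Lpl 97.4 ± 3.15 and 4553 ± 84.1 TPM, and Plin2 8.09 ± 1.33 and 671 ± 102 TPM (SD, n = 3 each). Ch25h was listed at 0 in all wildtype J774.1 libraries and Pparg in all 6 libraries of the line. Ch25h was at 0.0563 TPM in 1 library labelled dKO and at 0 in the other 2.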

How the data were processed

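The TPM values were deposited by the authors as gene-level estimates, 1 table for the 18 BMDM libraries and 1 for the 6 J774.1 libraries. Salmon 1.9.0, DESeq2 1.44.0, R 4.4.1 and FastQC are named in the submitters' processing notes, with the builds mm39, GRCm38 and GRCm39, and the file headers name mm39. The same tables hold the authors' signal per gene (the mean of normalized counts), the authors' log2 fold changes and the authors' p-values, used only where the text names the authors' deposited table. Read depth per library is not given in the sources used here, so no counting interval is printed. The J774.1 table has 54661 lines with 190 repeated identifiers, of which the first line was kept.

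From the TPM values, log2(TPM + 1) was fitted with limma 3.58.1 (trend and robust, statmod 1.5.0, R 4.3.3), with 1 coefficient per group over the 18 BMDM libraries together and over the 6 J774.1 libraries alone. Testing was limited to genes averaging 10 TPM or more, and p-values were adjusted by Benjamini-Hochberg at 0.05 over all of them. BMDM libraries carry the replicate numbers 1, 3 and 4, and values are printed in that order. J774.1 libraries are numbered 1 to 3. Alternatives were a pseudocount of 0.1 or 5, a mean of at least 1 TPM, no such threshold, median-of-ratios scaling, a replicate block, leaving out each library, and fits on the 6 libraries compared. Tested on simulated data, the Ctbp2 siRNA comparison in LPS recovered 84% of genes changed by 0.5 on the log2 scale and 97% of those changed by 1 among 7918 genes, and the dKO comparison 88% and 98% among 7782 genes, with 9 and 13 false calls in these comparisons against 100 genes changed by each size. The 47 genes, their role groups and the related list were chosen with earlier results of these data known. Values per library are given for genes called in an siRNA or dKO comparison, for the largest calls with LPS, up to 8 per direction, and for Srebf1, Srebf2, Scap, Insig1, Insig2, Nr1h2, Nr1h3, Pparg, Abca1 and Ch25h. Tables and plots were made with Python 3.11.15, pandas 2.3.3 and matplotlib 3.10.9.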

Additional observations from a re-analysis of the deposited data

How the results depend on the processing

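Of 355 results (the log2 fold change of a tested lipid gene in 1 comparison), 355 kept direction and side of the threshold with a pseudocount of 0.1, 353 with a pseudocount of 5, 350 at a mean of 1 TPM, 341 without a threshold on the mean and 316 after median-of-ratios scaling. Scaling turned 5 directions with LPS: Lpl to 0.09, 0.10 and 0.10 (control, Ctbp1 and Ctbp2 siRNA), Nr1h2 to 0.23 and Lpcat3 to 0.01, both with Ctbp2 siRNA. The number of genes called with Ctbp1 siRNA in vehicle was 1 on the 6 libraries compared and 1 with a replicate block, where the full fit had 0. With Ctbp2 siRNA in vehicle it was 0 after scaling, 0 without a threshold on the mean, 0 on the 6 libraries compared and 2 with a replicate block, and with Ctbp2 siRNA in LPS 0, 0, 0 and 3, where the full fits had 1 each. For Ctbp2 against Ctbp1 siRNA in LPS it was 1 after scaling, 0 without a threshold on the mean and 0 on the 6 libraries compared, where the full fit had 4. Leaving out 1 library gave 0 to 1 calls with Ctbp2 siRNA in vehicle, 0 to 2 in LPS, 0 to 6 for Ctbp2 against Ctbp1 siRNA in LPS, and 11 to 17 for the dKO label, while LPS kept 21 to 23 calls in control siRNA cells. These ranges cover each library compared and, for every BMDM comparison, also control siRNA LPS replicate 4. That library gave the 6, from outside its comparison. The cause of these shifts was not tested. BMDM libraries with the same replicate number correlated at -0.15 to 0.324 (deviations from group means, 21 of 45 pairs over 0.1, median 0.09). Pairs with other numbers had 4 of 90 over 0.1 and a median of -0.029. In J774.1 cells same-numbered pairs had -0.026 to 0.163. Same-numbered BMDM libraries were thus weakly alike, but the labels state no block, and the full fit leaves this likeness out. Over all genes the replicate block called 185 with Ctbp2 siRNA in vehicle, against 81 in the full fit, and 457 in LPS, against 251. It called 914 for Ctbp2 against Ctbp1 siRNA in LPS, against 538, and 2964 for the dKO label, against 3272. Among the lipid genes the block gave 24, 23 and 25 LPS calls (control, Ctbp1 and Ctbp2 siRNA) and 15 dKO calls. Genes under 10 TPM, 18 in BMDMs and 11 in J774.1 cells, rest on low values, and no read depth was used.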

Other observations

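Abca1 and Apoe were lowest in replicate 3 of all 6 BMDM groups, which held for 2 of the 29 tested lipid genes (6.9%) and for 85 of all 7918 tested genes (1.07%). Apoe was also highest in replicate 4 of all 6 groups, as were 2.39% of all genes. These values are given without a test.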
